A study of Homo sapiens with 6 samples.

Results

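The BCL2 family holds the proteins that decide whether the mitochondrial outer membrane of a stressed cell is opened. Its transcripts were followed here through 10 genes, taken by symbol from a list of pro-survival members (BCL2, BCL2L1 and MCL1), pore-forming effectors (BAX and BAK1) and BH3-only members (BBC3, PMAIP1, BMF, BCL2L11 and BID). All 10 were found, among 16574 genes with an FPKM (fragments scaled for transcript length and library depth), and all 10 passed the low-value filter, which asked that at least 3 libraries reach an FPKM of 1. The cells were Nthy-ori 3-1, a line made from normal human thyroid follicular epithelium by immortalisation with SV40 large T antigen, a viral oncoprotein. The genotype of all samples was labelled WT. One group of 3 libraries came from cells exposed to the brominated flame retardant decabromodiphenyl ether (BDE209) at 2.5 µM over 27 days and the other group of 3 from cells kept for the same time in an equal volume of the solvent dimethyl sulfoxide (DMSO). Libraries of both groups carry the replicate numbers 1 to 3, and the labels do not state whether each number was its own culture. The p-values therefore speak only of the spread among these 6 libraries, which may be technical.

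Pro-survival members hold BAX and BAK1 in check, and the BH3-only proteins, each induced or activated by its own kind of damage, bind the pro-survival members or the effectors and so set the effectors free. Freed BAX and BAK1 assemble in the outer membrane, cytochrome c leaves the mitochondrion, and caspases are activated. Much of this control acts on proteins (cleavage of BID, phosphorylation of BCL2L11 and BMF, rapid breakdown of MCL1), and transcript levels do not measure it.

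In BDE209, 3 of the 5 BH3-only transcripts (BMF, BCL2L11 and BID) were higher than in DMSO within every replicate number, as was pro-survival MCL1, and the effector BAK1 was lower within every replicate number. The largest difference was that of BMF, at 2.35 ± 0.330 FPKM in BDE209 against 1.63 ± 0.367 in DMSO (SD, n = 3), a ratio of means of 1.44. The ratio was 1.27 for BCL2L11, at 1.39 ± 0.115 against 1.09 ± 0.0493, and 1.205 for BID, at 26.2 ± 7.23 against 21.8 ± 7.91, and on the log2(FPKM + 1) scale BID stood before BCL2L11. None of these differences passed the test across all genes. Limma without a block called 0 of the 11223 genes tested at a Benjamini-Hochberg adjusted p under 0.05, or 0% of them, and 0 of the 10 members, each with an adjusted p of 1.00. At an unadjusted p under 0.05 the same fit had 176 genes (1.57%) and 0 members. With the replicate number as a block, limma again called 0 genes, or 0%, with adjusted p of 0.216 to 0.877 for the members. At an unadjusted p under 0.05 that fit had 2 members, BMF and BID, against 16.5% of all genes tested.

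Keeping a sign over the 3 pairs was common. Among all genes tested, 21.9% were higher in BDE209 in all 3 pairs and 17.3% were lower in all 3, against 4 and 1 of the 10 members. Together these are 39.2% of all genes and 5 of the 10 members; under quantile normalization the shares were 17.2% and 21.4%. Across all genes tested, which are not independent replicates, the differences of pairs 1 and 3 correlated at r = 0.727, and those of pair 2 with pair 1 at 0.0589. The median difference over the 10 members was 0.07 on the log2(FPKM + 1) scale, against 0.01 over all genes tested. By pair, the members' medians were 0.11, 0.08 and 0.00 in replicates 1, 2 and 3, against 0.01, 0.02 and 0.00 over all genes. The direction of BMF, BCL2L11, BID, MCL1 and BAK1 within every pair was kept when each library was rescaled to the same total (TPM) and under quantile normalization, both checked after the data were seen. Under TPM scaling BBC3 and PMAIP1 were also higher in all 3 pairs, where 23.4% of all genes tested were higher and 16.5% lower.

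The 3 BDE209 values lay wholly apart from the 3 DMSO values for 3 members, BMF and BCL2L11 above and BAK1 below. Among all genes tested, 3.22% lay wholly above and 2.00% wholly below, or 5.22% in all. This separation depended on the scaling, since 1 member (BMF) lay apart under quantile normalization and 0 did under TPM scaling, beside 5.6% and 3.18% of all genes tested. Without replicate 2, 4 members lay apart (BMF, BCL2L11 and BID above, BAK1 below), but so did 52.1% of all genes.

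**Figure D1:**
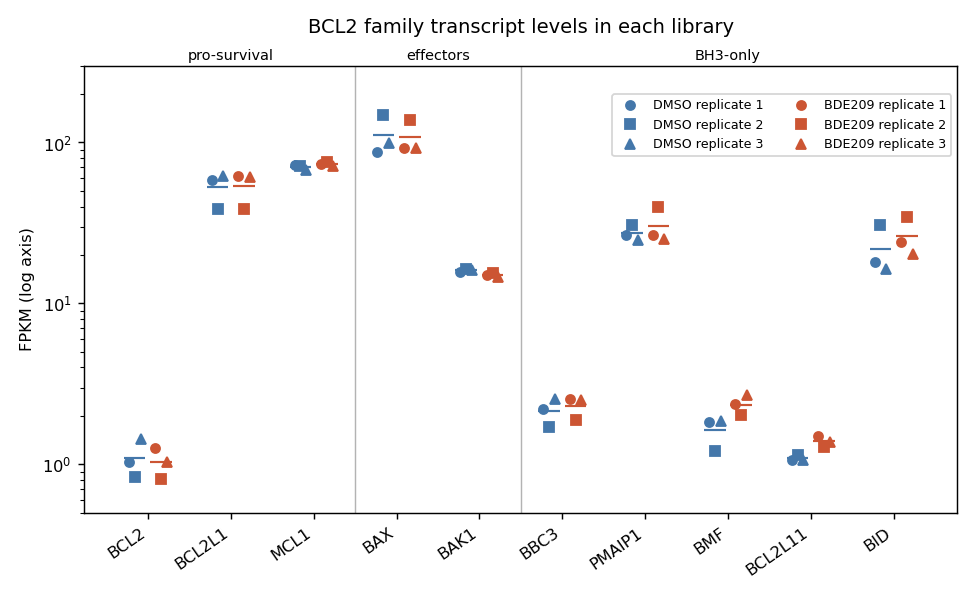
Each point is the FPKM of a BCL2 family gene in a library, on a log axis, for DMSO (blue) and BDE209 (red), with the replicate number as the shape and the group mean as a bar. BAX, MCL1 and BCL2L1 stand highest, BCL2 and BCL2L11 lowest, and the squares of replicate 2 stand apart from the other replicates for BAX, BCL2L1 and BID.

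The libraries differed in ways that touch these values. What 1 fragment is worth, read from the lowest values of short genes, put the depth at about 8.7 to 13.3 fragments for each FPKM and kilobase of transcript, so that a gene near 1 FPKM rests on about that number per kilobase. Replicate 2 stood apart in both groups. There, 16 ribosomal protein genes summed to 48347 to 49544 FPKM, against 25930 to 28785 in the other libraries, and genes in the shortest of 4 equal classes of transcript length stood higher by a median of 0.35 log2 units, while those in the longest class stood lower (-0.40). Most marker genes of the labelled follicular cell were near absent: 7 of 9 follicular markers, TG, TSHR and PAX8 among them, were under 1 FPKM in all libraries. All 9 together summed to 6.45 to 8.49 in DMSO and 7.26 to 9.65 in BDE209. That sum was mostly HHEX, at 4.83 to 7.62 FPKM, with FOXE1 at 0.84 to 1.48. Epithelial markers (6, with CDH1 and KRT19 under 1 FPKM in all libraries) summed to 150 to 179 in DMSO and 119 to 155 in BDE209, and 10 mesenchymal markers, with VIM and COL1A1 highest, to 9997 to 14685 and 9216 to 12357. That sum is mostly VIM, and the mesenchymal markers did not go one way: limma without replicate 2 called 3 of the 10 as higher and 3 as lower, with LUM at 7.26 to 8.21 in DMSO and 11.09 to 23.38 in BDE209 and FN1 at 560 to 1159 and 426 to 810. The 4 immune markers in the files summed to 58.9 to 74.4 in DMSO and 49.0 to 68.3 in BDE209, nearly all from CD68, with PTPRC at 0.02 or less. The 4 endothelial markers, mostly KDR, summed to 2.22 to 2.47 and 2.66 to 3.36, with CDH5 and VWF near 0, and the 2 C cell markers to 0.12 or less. Whether these differences between libraries had a part in the members' values was not tested. In bulk RNA, fewer cells expressing a gene and less RNA per cell cannot be told apart.

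The transcripts differed widely in level per length. Over the 6 libraries the mean FPKM was 109.9 for BAX, 71.9 for MCL1, 53.5 for BCL2L1, 28.8 for PMAIP1, 24.0 for BID, 15.6 for BAK1, 2.24 for BBC3, 1.99 for BMF, 1.24 for BCL2L11 and 1.07 for BCL2. BAX exceeded MCL1, MCL1 exceeded BCL2L1, BID exceeded BAK1, BAK1 exceeded BBC3 and BMF exceeded BCL2L11 in 6 of 6 libraries. Neighbours that changed places were BCL2L1 and PMAIP1, PMAIP1 and BID, and BCL2L11 and BCL2 (5 of 6 libraries in the order given), and BBC3 and BMF (4 of 6). By its mean, the gene that gives the family its name had the lowest level of the 10. It made 0.707% to 1.09% of the summed FPKM of the listed pro-survival members, while MCL1 supplied 51.7% to 65.5%. PMAIP1 and BID together made 87.3% to 93.8% of the summed FPKM of the listed BH3-only members. Outside these sums are BAD, at 63.98 to 83.34 FPKM, and BCL2L2, at 15.83 to 18.76. Both belong to the other BCL2 family genes and are named after their values were seen.

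The bases before the transcription start are shown for the 3 genes whose groups did not overlap, 2 above and 1 below DMSO. They run from 250 to 21 bases before the most upstream RefSeq start (GRCh38.p14), 5′ to 3′ on the strand of the gene, and overlap no exon of GENCODE v29. Capitals mark the GC box GGGCGG, to which SP1 binds, and the FOXO core GTAAACA, each searched on both strands.
BMF: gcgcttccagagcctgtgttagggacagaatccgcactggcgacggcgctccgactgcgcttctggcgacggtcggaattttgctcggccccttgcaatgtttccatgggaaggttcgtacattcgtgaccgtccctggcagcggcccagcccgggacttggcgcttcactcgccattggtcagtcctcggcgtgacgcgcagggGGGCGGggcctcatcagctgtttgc
BCL2L11: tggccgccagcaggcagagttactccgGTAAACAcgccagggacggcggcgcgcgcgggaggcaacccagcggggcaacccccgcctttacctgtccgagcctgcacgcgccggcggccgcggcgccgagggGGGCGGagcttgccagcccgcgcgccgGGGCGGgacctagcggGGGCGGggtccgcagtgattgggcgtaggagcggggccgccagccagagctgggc
BAK1: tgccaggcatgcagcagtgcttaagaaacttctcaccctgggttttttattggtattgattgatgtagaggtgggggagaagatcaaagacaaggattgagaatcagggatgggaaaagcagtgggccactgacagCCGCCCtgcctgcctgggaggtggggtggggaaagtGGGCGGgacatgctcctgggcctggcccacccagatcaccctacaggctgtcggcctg
The BMF window (chr15:40108900-40109129, minus strand) held 1 GC box, first base 45 before the start, with 64.3% G and C. The BCL2L11 window (chr2:111120664-111120893, plus strand) held 3 GC boxes and the FOXO core, 223 bases before the start, with 77.4% G and C. The BAK1 window (chr6:33580297-33580526, minus strand) held 2 GC boxes, first bases 114 and 78 before the start, with 57.0% G and C. Of all 35116 windows of the same length, 40.0% held a GC box and 2.74% the FOXO core. A match is a description of the letters only, and factor binding was not measured.

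Of the pro-survival members, MCL1 (ENSG00000143384), a short-lived protein that binds BAK1 and the BH3-only proteins, varied least, with a highest value 1.11 times the lowest. MCL1 read 72.76, 71.15 and 67.62 FPKM with DMSO, in the order of the replicate numbers used throughout, against 73.80, 75.08 and 71.23 with BDE209. Every BDE209 library was above the DMSO library of its number, but the groups overlapped, since BDE209 replicate 3 lay below DMSO replicate 1. The mean difference was 0.06 on the log2(FPKM + 1) scale, with a 95% interval of -0.07 to 0.18 from limma with the block. Without DMSO replicate 3 it was 0.03. ADAMTSL4-AS1 overlaps its exons on the same strand.

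BCL2L1 (ENSG00000171552) encodes BCL-XL, a stable pro-survival protein of the outer membrane. It read 58.71, 38.64 and 61.83 FPKM with DMSO against 61.75, 38.70 and 61.15 with BDE209. Both replicate 2 libraries were far below the rest, and within each number the groups were nearly level, with BDE209 over DMSO ratios of 1.05, 1.00 and 0.989. The 95% interval of the difference was -0.11 to 0.15 with the block and -0.62 to 0.66 without it, both by limma. In fits without the block, the difference of 0.02 became -0.19 without DMSO replicate 2 and -0.09 without BDE209 replicate 1 or 3. Each of these kept a replicate number in a single group. Without a whole number it ran from -0.01 (number 1) to 0.04 (number 3). An antisense gene, ABALON, overlaps BCL2L1 in GENCODE v29, and without stated strand use their reads cannot be told apart.

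BCL2 (ENSG00000171791), the founding pro-survival gene, read 1.03, 0.84 and 1.43 FPKM with DMSO against 1.26, 0.81 and 1.04 with BDE209. BDE209 was higher in replicate 1 and lower in replicates 2 and 3, and the groups overlapped. The difference was -0.04, with a 95% interval of -0.31 to 0.23 from limma with the block, and its sign turned without DMSO replicate 3 (0.07), without BDE209 replicate 2 (0.04) and without replicate number 3 (0.07).

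Of the effectors, BAK1 (ENSG00000030110), which sits in the outer membrane in healthy cells, read 15.65, 16.33 and 16.20 FPKM with DMSO against 15.08, 15.39 and 14.67 with BDE209. The highest BDE209 value was below the lowest DMSO value. The means were 16.1 ± 0.361 and 15.1 ± 0.361 (SD, n = 3), and the ratios within replicates 1, 2 and 3 were 0.964, 0.942 and 0.906. The log2 difference was -0.09, and the 95% interval from limma with the block, -0.23 to 0.05, included 0 (adjusted p = 0.458). With the libraries rescaled to the same total, BAK1 read 26.2, 19.9 and 27.9 TPM with DMSO against 25.7, 18.5 and 25.8 with BDE209, lower within each number but overlapping between groups. BAK1 has processed pseudogene copies, BAK1P1 and BAK1P2, and an opposite-strand neighbour, GGNBP1, that overlaps its exons, so some reads may have been shared.

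BAX (ENSG00000087088), the effector that moves from the cytosol to the membrane, read 87.58, 148.89 and 99.50 FPKM with DMSO against 92.49, 138.56 and 92.49 with BDE209. Replicate 2 was highest in both groups, BDE209 was higher in replicate 1 and lower in replicates 2 and 3, and the groups overlapped. The difference was -0.04, with a 95% interval of -0.19 to 0.10 from limma with the block. In fits without the block it became 0.18 without DMSO replicate 2 and 0.05 without BDE209 replicate 1 or 3. Each of these kept a replicate number in a single group. Without a whole number it stayed negative, from -0.10 (number 1) to -0.01 (number 2 or 3).

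Among the BH3-only members, BMF (ENSG00000104081), which is held at the cytoskeleton and released on loss of attachment and other stresses, read 1.84, 1.21 and 1.85 FPKM with DMSO against 2.36, 2.02 and 2.68 with BDE209. The lowest BDE209 value, in replicate 2, was above the highest DMSO value. The ratios within replicates 1, 2 and 3 were 1.28, 1.67 and 1.45. The log2 difference was 0.35, and 4.63% of all genes tested had a larger absolute difference. The 95% interval was 0.14 to 0.57 by limma with the block (unadjusted p = 0.00658, adjusted p = 0.221) and -0.02 to 0.73 without it. Without DMSO replicate 2 the difference was 0.23. After rescaling to the same total it read 3.08, 1.48 and 3.19 TPM with DMSO against 4.03, 2.44 and 4.72 with BDE209, so the groups overlapped through replicate 2. The antisense gene BMF-AS1 overlaps its exons.

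BCL2L11 (ENSG00000153094) encodes BIM, which binds all pro-survival members and can engage the effectors directly. It read 1.06, 1.15 and 1.07 FPKM with DMSO against 1.51, 1.28 and 1.38 with BDE209. The means were 1.09 ± 0.0493 and 1.39 ± 0.115 (SD, n = 3), and all BDE209 libraries were above all DMSO libraries. The ratios within replicates 1, 2 and 3 were 1.42, 1.11 and 1.29. The log2 difference was 0.19, with a 95% interval of -0.04 to 0.42 from limma with the block (adjusted p = 0.358). MIR4435-2HG, a long non-coding gene on the opposite strand, overlaps BCL2L11 exons. After rescaling to the same total, BDE209 replicate 2 (1.54 TPM) lay below DMSO replicates 1 and 3 (1.78 and 1.85 TPM).

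BID (ENSG00000015475), which carries the death receptor signal to mitochondria once caspase-8 cleaves it, read 18.08, 30.85 and 16.38 FPKM with DMSO against 24.11, 34.27 and 20.29 with BDE209. Both replicate 2 libraries were high, and DMSO replicate 2 exceeded BDE209 replicates 1 and 3. The ratios within replicates 1, 2 and 3 were 1.33, 1.11 and 1.24. The log2 difference was 0.28, with a 95% interval of 0.11 to 0.44 from limma with the block (unadjusted p = 0.00591, adjusted p = 0.216) and of -0.43 to 0.99 without it. In fits without the block it became 0.08 without BDE209 replicate 2, 0.11 without DMSO replicate 3, 0.18 without DMSO replicate 1, 0.44 without BDE209 replicate 3 and 0.55 without DMSO replicate 2.

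BBC3 (ENSG00000105327), which encodes PUMA, a BH3-only protein that binds all pro-survival members, read 2.22, 1.70 and 2.55 FPKM with DMSO against 2.56, 1.89 and 2.51 with BDE209. It was higher in replicates 1 and 2 and slightly lower in replicate 3, with a difference of 0.08 and a 95% interval of -0.13 to 0.28 from limma with the block. In a fit without the block it became -0.03 without DMSO replicate 2, which kept number 2 in BDE209 only. Without a whole number it stayed positive, from 0.04 (number 1) to 0.12 (number 3). The microRNA genes MIR3190 and MIR3191 overlap its exons.

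PMAIP1 (ENSG00000141682), which encodes NOXA, a selective partner of MCL1, read 26.61, 30.65 and 24.80 FPKM with DMSO against 26.52, 39.49 and 24.99 with BDE209. BDE209 replicate 2 was the highest library, at 1.29 times DMSO replicate 2, whereas in replicates 1 and 3 the groups were nearly level, with ratios of 0.997 and 1.01. The mean difference of 0.12 (95% interval -0.09 to 0.33 by limma with the block) rested on replicate 2, and without that number it was 0.00 (-0.08 without BDE209 replicate 2 alone).

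**Figure D2:**
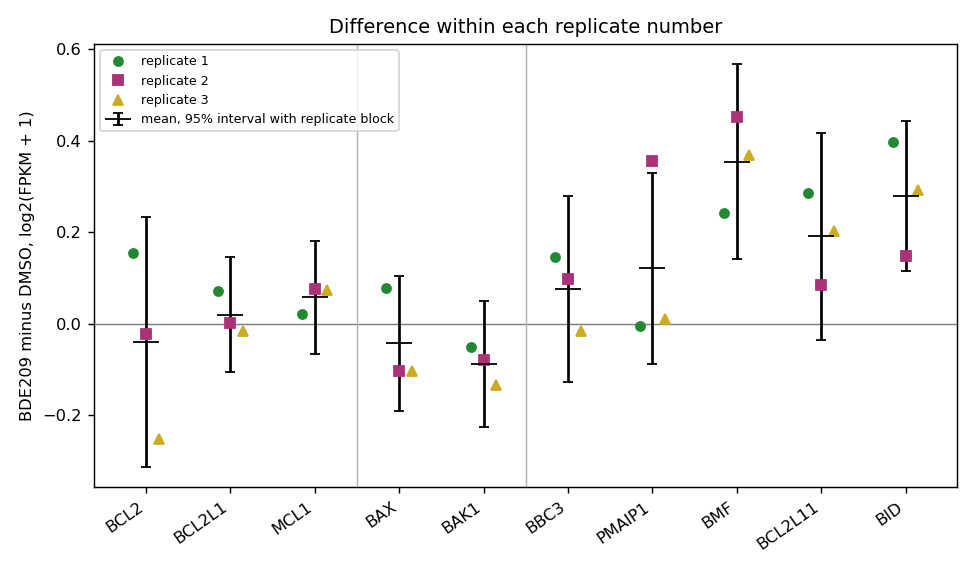
Difference between BDE209 and DMSO (positive where BDE209 is higher), in log2(FPKM + 1), for each BCL2 family gene, with a coloured point for each replicate number and, in black, the mean with its 95% interval from limma with the replicate block. All 3 points lie above 0 for MCL1, BMF, BCL2L11 and BID and below 0 for BAK1, and the unadjusted intervals of BMF and BID leave out 0.

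Most members stood further apart between replicate 2 and the other numbers than between BDE209 and DMSO. On the log2(FPKM + 1) scale, the shift of replicate 2 against the mean of replicates 1 and 3, averaged over both groups, was 0.71 log2 units for BID, 0.62 for BAX, 0.42 for PMAIP1, 0.03 for MCL1, 0.04 for BAK1, -0.02 for BCL2L11, -0.26 for BCL2, -0.29 for BMF, -0.31 for BBC3 and -0.64 for BCL2L1. For 6 of the 10 members it exceeded the BDE209 difference in size, and in FPKM the exceptions were MCL1, BAK1, BMF and BCL2L11. For MCL1 and BAK1 at least, this depended on the scaling. After rescaling to the same total, replicate 2 was the lowest library of its group for all of these exceptions. MCL1 then read 86.9 (DMSO) and 90.5 TPM (BDE209), and 116.6 or more elsewhere. BAK1 read 19.9 and 18.5, and 25.7 or more elsewhere. The shift in TPM was not computed. Summed FPKM was highest in replicate 2 (819086 and 829739), and no other library passed 596725. Transcript length and the shift did not run together for every member. BAX, with a longest coding transcript of 1358 bases, stood high in replicate 2, but BBC3, at 1838 bases and in the same shortest class, stood low. BID (2495 bases) and BCL2L1 (2610 bases) of the next class went opposite ways, where the median over all genes was 0.00. PMAIP1 of the shortest class, BMF of the third and BCL2 of the longest lay on the side of their class medians (0.35, -0.21 and -0.40). MCL1 of the third class and BCL2L11 of the longest hardly moved. The part of the replicate 2 shift in the BDE209 differences was not tested, beyond the fits without that number.

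**Figure D3:**
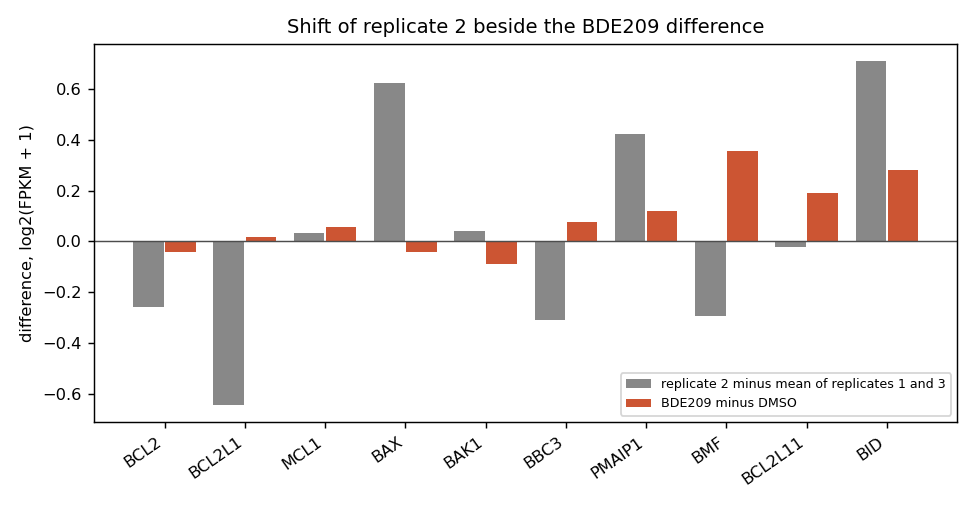
For each BCL2 family gene, the grey bar is replicate 2 minus the mean of replicates 1 and 3, averaged over both groups, and the red bar is the BDE209 minus DMSO difference, both in log2(FPKM + 1). The grey bars are longest for BID, BCL2L1 and BAX, and the red bar exceeds the grey in MCL1, BAK1, BMF and BCL2L11.

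Ratios between members within a library are the same whatever single factor scales a library, and are given as values with no test. MCL1 over BAK1 was 4.65, 4.36 and 4.17 with DMSO against 4.89, 4.88 and 4.86 with BDE209, higher in every pair and without overlap. That direction was fixed in advance, since MCL1 was higher and BAK1 lower in every pair. The share of other gene ratios without overlap was not counted. BCL2L1 over BAK1 was 3.75, 2.37 and 3.82 with DMSO against 4.10, 2.52 and 4.17 with BDE209, also higher in every pair, though replicate 2 stood low. Against BAX the pairs disagreed. MCL1 over BAX was 0.831, 0.478 and 0.680 with DMSO against 0.798, 0.542 and 0.770 with BDE209, lower in replicate 1 and higher in replicates 2 and 3. BCL2L1 over BAX was 0.670, 0.260 and 0.621 with DMSO against 0.668, 0.279 and 0.661 with BDE209, and its spread between replicates was far larger than any pair's difference.

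Over the listed members only, the BH3-only sum was higher relative to the pro-survival sum in each pair. BAD and BCL2L2 are outside these sums, and BAD alone exceeded the BH3-only sum in every library. Summed BH3-only FPKM, the initiators of the pathway, came to 37.6%, 59.3% and 35.6% of summed pro-survival FPKM with DMSO against 41.7%, 68.9% and 38.9% with BDE209. The groups overlapped, since DMSO replicate 2 lay above BDE209 replicates 1 and 3. BID, BMF and BCL2L11 were already higher in every pair, so the direction of the sum is not a separate result. The share of other sums that behave so was not counted. The BH3-only sum was mostly BID and PMAIP1 in every library, and PMAIP1 was nearly level between groups in replicates 1 and 3. MCL1 over PMAIP1 was 2.73, 2.32 and 2.73 with DMSO against 2.78, 1.90 and 2.85 with BDE209, higher in replicates 1 and 3 and lower in replicate 2. BCL2L11 came to 1.46%, 1.62% and 1.58% of MCL1 in DMSO and 2.05%, 1.71% and 1.94% in BDE209, without overlap. Its FPKM alone already lay apart, and the share of other gene ratios that do so was not counted. BMF came to 2.53%, 1.70% and 2.74% of MCL1 in DMSO and 3.20%, 2.69% and 3.76% in BDE209, with BDE209 replicate 2 just under DMSO replicate 3.

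**Figure D4:**
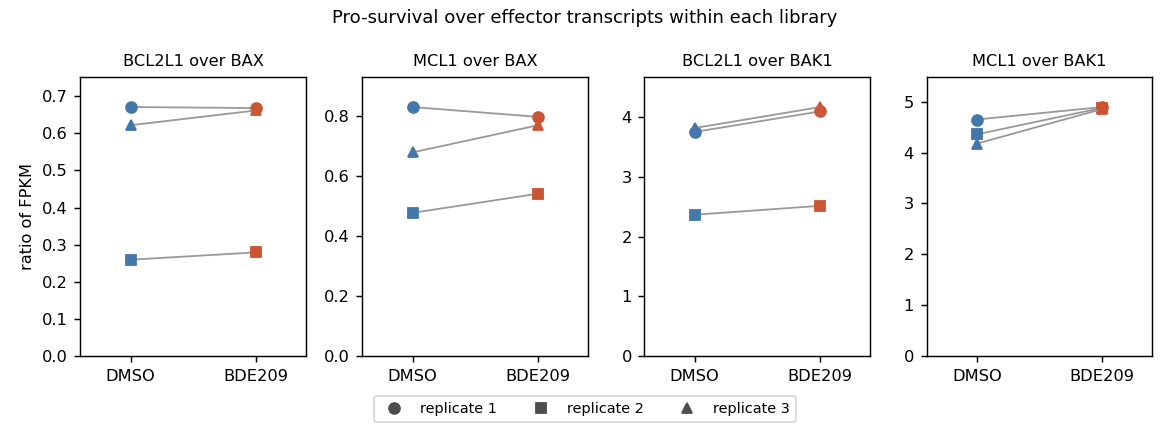
Ratio of FPKM of a pro-survival gene to an effector gene in each library, with a line joining the DMSO and BDE209 libraries of the same replicate number (shape) and axes that start at 0. Both ratios over BAK1 are higher in BDE209 in all 3 pairs, and both ratios over BAX are lower in replicate 1 and higher in replicates 2 and 3.

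The genes around the members were described through 6 lists, with 66 tested genes in all. Limma called 0 of the 66, with and without the block (0% of all genes in both fits). In a fit without replicate 2, limma called 5 as higher and 1 as lower, against 4.74% and 2.41% of all genes, and 0 of the 10 members, whose adjusted p there ran from 0.101 (BID) to 0.989 (PMAIP1). That fit held 2 libraries a group, and among the 5 called as higher were BNIP3 (adjusted p = 0.000418), BIRC3 (0.00174), TNFRSF10B (0.007025) and BNIP3L (0.00934). Over all 3 pairs, 15 of the 66 were higher and 11 lower, with a median difference of 0.02, beside 21.9% and 17.3% of all genes tested and a median of 0.01. The same shares stand beside the counts of each list that follow.

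Of the other BCL2 family genes, 8 of 12 in the files were tested, with 2 higher and 1 lower in all 3 pairs. BNIP3, a BH3-only-like protein of mitophagy that hypoxia induces, read 126.34, 313.09 and 123.10 FPKM with DMSO against 268.23, 286.20 and 271.10 with BDE209. BDE209 exceeded DMSO 2.12 and 2.20 times in replicates 1 and 3 and was slightly lower in replicate 2 (0.914 times). Its relative BNIP3L read 67.83, 79.78 and 65.80 with DMSO against 108.37, 84.08 and 95.17 with BDE209, higher in all 3 pairs. BIK, HRK, BCL2L10 and BCL2L15 were under the filter, at 0.13 FPKM or less in every library.

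Downstream, 13 apoptosome and caspase genes had 2 members higher and 2 lower in all 3 pairs and a median of -0.01. Of 5 tested inhibitor of apoptosis genes, all 3 pairs had BDE209 higher for 2 and lower for 1. BIRC3, an inhibitor under NF-kB control, read 0.78, 1.27 and 0.60 FPKM with DMSO against 3.31, 1.31 and 2.85 with BDE209, with replicate 2 nearly level. BIRC5, survivin, read 52.2 ± 8.02 FPKM (SD, n = 3) with DMSO against 47.0 ± 12.5 with BDE209, lower in all 3 pairs.

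In the death receptor list, all 3 pairs had BDE209 higher for 4 of 10 tested genes and lower for 1. TNFRSF10B, a receptor for the ligand TRAIL, read 25.35, 26.63 and 23.19 FPKM with DMSO against 37.14, 27.80 and 37.23 with BDE209. FAS, the receptor of FAS ligand, read 1.59 ± 0.127 with DMSO against 2.07 ± 0.416 with BDE209. TNFRSF10D, a TRAIL receptor without a working death domain, was the gene called as lower without replicate 2 and is named after its values were seen, at 171.04, 247.67 and 162.79 with DMSO against 120.01, 224.19 and 111.19 with BDE209.

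Of 14 genes of the outer membrane and its contacts, 2 were higher and 3 lower in all 3 pairs. The calcium channels ITPR1 and ITPR2 of the endoplasmic reticulum read 2.51 ± 0.374 and 1.38 ± 0.363 FPKM with DMSO against 3.11 ± 0.930 and 1.95 ± 0.800 with BDE209. Of 16 tested regulators of the family, 3 were higher and 3 lower in all 3 pairs. DDIT3, a stress factor that can induce BCL2L11, read 32.24, 34.23 and 30.80 FPKM with DMSO against 38.10, 39.78 and 35.50 with BDE209. The ratios were near equal, at 1.18, 1.16 and 1.15 (limma adjusted p = 0.216 with the block). Its groups did not overlap, as for 7 of the 66 tested genes of the lists and 5.22% of all genes tested. Whether they stay apart after rescaling to the same total was not computed, and a link to BCL2L11 was not tested. MYC, a growth factor response gene, read 26.8 ± 1.75 with DMSO against 24.8 ± 1.67 with BDE209, lower in all 3 pairs.

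BMF, the member with the largest difference, was also set beside all tested genes by its pattern over the 6 libraries on the log2(FPKM + 1) scale. The closest were NAA30 (Pearson r = 0.992), GDAP1 (0.986) and SLC2A13 (0.984), and 23 genes reached 0.95 or more. With 6 libraries that share the shift of replicate 2, such values are a description of these libraries. SLC2A13, a myo-inositol transporter, read 2.03, 1.45 and 2.04 FPKM with DMSO against 2.69, 2.12 and 3.17 with BDE209, with replicate 2 lowest in each group as for BMF.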

How the data were processed

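RNA was sequenced from 6 libraries of Nthy-ori 3-1 cells, 3 kept in BDE209 and 3 in DMSO. The titles of the samples gave the group and replicate number. The authors deposited FPKM values, to 2 decimals, per the file headers. Bowtie 0.12.2, Bowtie2 and RSEM are named in the submitters' processing notes, next to the builds mm10 and mm8, both of mouse, although the deposited identifiers are human. Which human build was used, whether strand was used and how shared reads were handled is not given in the sources used here, so reads of overlapping or near-identical genes may be assigned to either.

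Of 16614 rows per file, the 40 rows of 20 repeated identifiers were left out, and 16535 of 16574 genes matched a symbol. Limma 3.58.1 in R 4.3.3 (trend and robust options, two-sided) was fitted on log2(FPKM + 1) over all 11223 genes that reached an FPKM of 1 in at least 3 libraries. The fit was also run on simulated data. Those data held no shift of replicate 2 and only changes larger than the members' differences. They therefore cannot show what the fit would find among the members. The log2(FPKM + 1) scale understates the change of low genes. The replicate numbers pair the samples: deviations from the group means correlated across genes at 0.738, 0.875 and 0.824 for numbers 1, 2 and 3, and the highest value between numbers was 0.646. What samples of a number have in common is not in the labels. Length is that of the longest coding transcript in GENCODE v29 (found for 99.8% of tested genes). Absolute depth is known only roughly, from the spacing of low values of genes with 1 transcript model under 2500 bases.

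The members, lists and tests were chosen with earlier results of these data known. From each list the 2 tested genes with the smallest p are named, with the 3 genes most correlated to the member of largest difference, and other genes named after their values were seen are stated as such or given as counts. BIK, HRK, BCL2L10, BCL2L15, MIR4435-2HG, ABALON, BMF-AS1, GGNBP1 and the BAK1 pseudogenes are named for context. Some genes that the rule names are not reported here. Alternatives were the block, TPM and quantile scaling, a pseudocount of 0.1, no filter or a minimum of 5, limma without its options, and leaving out libraries or replicate numbers. Python 3.11.15 with pandas 2.3.3 was used for the tables.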

Additional observations from a re-analysis of the deposited data

How the results depend on the processing

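No member passed the threshold in any of the 18 settings run, and BMF, BCL2L11, BID, MCL1 and BAK1 kept their direction in all settings that tested them; a minimum of 5 FPKM left 6 members tested. BMF ranged from 0.23 to 0.43 over the leave-one-out fits and reached 0.52 with a pseudocount of 0.1, BCL2L11 0.14 to 0.24 and 0.32, and BID 0.08 to 0.55 and 0.29. Leaving out a library or a number turned the sign of 5 members: BCL2 ranged from -0.138 to 0.0697, BCL2L1 from -0.19 to 0.24, BAX from -0.24 to 0.18, BBC3 from -0.0326 to 0.172 and PMAIP1 from -0.079 to 0.241. These fits held no block, so leaving out a single library kept its number, with any shift, in the other group only. Leaving out a whole number turned the sign of BCL2 and BCL2L1, but not of BAX, BBC3 or PMAIP1. The number of genes called by limma was 0 without the replicate block and 0 with the replicate block, with 1847 genes against 176 at an unadjusted p under 0.05; the block changed no call. Without BDE209 replicate 2 it was 1 and without replicate number 2 it was 810 (537 higher and 273 lower), a range of 0 to 810 over the leave-one-out fits; the cause was not tested. FPKM hold no counts, so the precision of the genes near 1 FPKM, BCL2, BCL2L11 and BMF, is known only from the spread of 3 libraries.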

Other observations

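The windows before the start were at hand for 9 of the 10 members (all but MCL1), in 15 RefSeq windows of 230 bases. A GC box stood in 9 windows of 6 members, the letters ACGTG in 4 windows of 3 members and the E-box CANNTG in 7 windows of 4 members. Of all windows of that length 40.0%, 17.0% and 59.3% held them. The FOXO core was in 1 of the 15, that of BCL2L11, and TATAAA in 1 window of BCL2L1, and the letters TGACGTCA were in none of them. Of all windows, 10.4% held TATAAA and 1.43% TGACGTCA. These are counts of letters on either strand, with no measure of binding.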
